A study of Bactrocera dorsalis with 6 samples.

Results

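The unigene comp28303_c1 is the assembled transcript of the oriental fruit fly *Bactrocera dorsalis* that matches Larval serum protein 2 (Lsp2, FBgn0002565) of *D. melanogaster*. It is 1 of 10799 unigenes in the data, and it holds 1 of the 20666 assembled isoforms. The unigene was chosen by that match and with its levels in these libraries already known, so its levels are given as a description and no test was run on them. RNA of whole insects with no treatment was sequenced at 6 stages, the larvae reared on liquid artificial diet and the adults fed sugar water and yeast. These were eggs, larvae and pupae, and among adults virgin males, insects described as virgin females, and females that had mated. Each stage is 1 library, made by mixing RNA of daily collections in equal amounts for the stages from egg to virgin adult, while mated females were picked from observed mating cages after the virgin collections had ended. Mating therefore cannot be told apart from age or from the way of collecting. The label check below adds sex to these for the library labelled female. No stage has a replicate, so no difference between stages has a replicate check, no p-value was computed, and every interval given covers counting error only at the 95% level.

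Lsp2 is a hexamerin, a storage protein of insect blood. In *D. melanogaster* the hexamerins are made by the larval fat body, the insect counterpart of liver and adipose tissue, and are secreted into the haemolymph. The fat body takes them up again around the onset of metamorphosis, and their amino acids are used to build adult tissue while the pupa does not feed. Hexamerins are related in sequence to the prophenoloxidases, the enzymes of melanin formation. Lsp2 of *D. melanogaster* is known to be transcribed in adults as well as in larvae.

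The libraries held between 7386960 and 9905262 expected counts, with a median of 8245350. Expected counts are the read fragments that the program RSEM assigned to each unigene. FPKM is the number of fragments corrected for transcript length and library size, here also scaled between libraries with TMM factors (trimmed mean of M values). The isoforms of dsx, a gene spliced differently in the sexes of flies, were used to check the labels. The isoform makeup of the library labelled female lay 21.8 percentage points from that of males, and the makeup of mated females lay 85.4 points from that of the library labelled female. By the rank (Spearman) coefficient over all unigenes, the library labelled female stood at 0.991 to males and at 0.818 to mated females. In both measures it was closer to males, so its sex label is uncertain. It is therefore called the labelled-female library throughout. Its difference from mated females cannot be told apart from a difference of sex, and mated females are also set against males. In whole insects, a change in the number of cells that make a transcript and a change in the RNA per cell cannot be told apart.

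The Lsp2 unigene had its highest level in pupae, where it was among the most abundant transcripts of the insect, and its lowest in eggs. Its FPKM was 2.25 in eggs, 1059 in larvae and 10529.6 in pupae, then 410.4 in males, 561 in the labelled-female library and 57.55 in mated females. The median unigene lay between 7.37 and 7.73 FPKM in these libraries, so Lsp2 was below the median in eggs and above it in the other 5 libraries. Over the 6 libraries, 83.4% of the summed FPKM lay in pupae, 8.39% in larvae, 4.45% in the labelled-female library, 3.25% in males, 0.456% in mated females and 0.0178% in eggs. The pupal level was 3240 times that of eggs on the scale of FPKM + 1. The median unigene had a ratio of 3.45 between its highest and its lowest library, and 5 unigenes had a larger one than Lsp2.

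The same order was seen in the counts behind these levels. The expected counts of Lsp2 were 48 in eggs, with an exact Poisson interval of 35.4 to 63.6. They were 15302 (15060 to 15546) in larvae and 170089 (169282 to 170899) in pupae, followed by 8410 (8231 to 8592) in males, 10116 (9920 to 10315) in the labelled-female library and 1274 (1205 to 1346) in mated females. The sum over libraries was 205239, and pupae held 82.9% of it. Only the egg value rests on fewer than 1000 counts, and its interval is the widest relative to its value.

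As a share of the library, Lsp2 took 0.000650% of the expected counts in eggs (Wilson interval 0.000490 to 0.000861%), which is 1 in 153895. It took 0.205% (0.202 to 0.208%) in larvae, or 1 in 488. In pupae it took 2.16% (2.15 to 2.17%), or 1 in 46.2. In adults the share was 0.0849% (0.0831 to 0.0867%) in males, 0.117% (0.115 to 0.119%) in the labelled-female library and 0.0142% (0.0134 to 0.0150%) in mated females. By expected counts Lsp2 ranked 3 among all unigenes in pupae, 76 in larvae, 114 in the labelled-female library, 184 in males, 1352 in mated females and 6553 in eggs. By FPKM, which is per length, it ranked 2 in pupae and 125 in larvae. Removing its counts from the pupal library would raise the share of every other pupal unigene by 2.21% of its value.

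**Figure D1:**
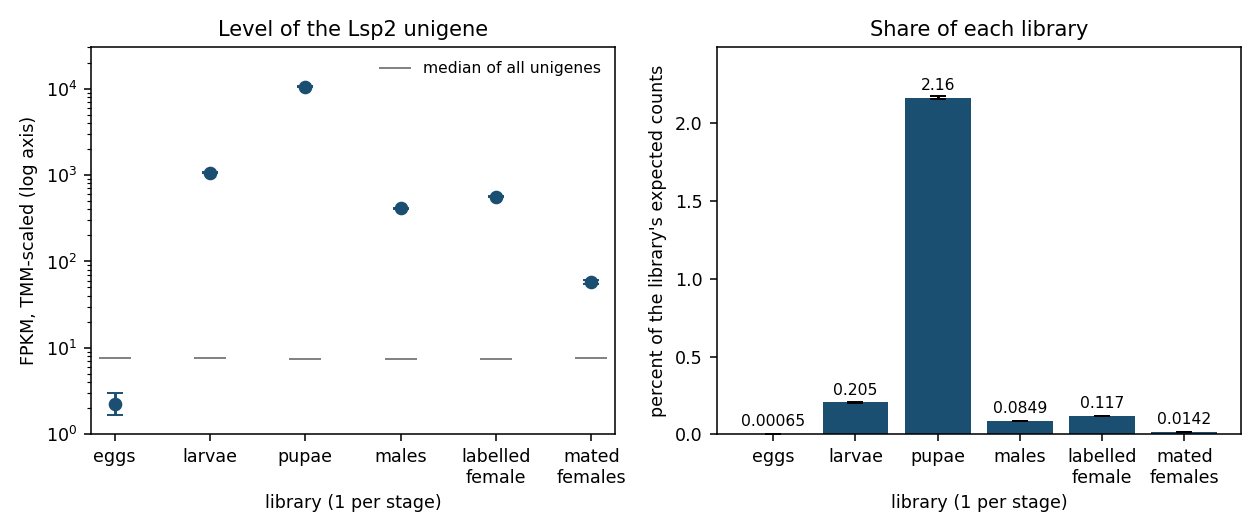
Level of the Lsp2 unigene in each library as TMM-scaled FPKM on a log axis (left) and as percent of the library's expected counts on a linear axis from 0 (right), with 1 library per stage and error bars for 95% counting intervals. Pupae stand at 10529.6 FPKM and 2.16%, and eggs at 2.25 FPKM lie below the grey marks of the median unigene.

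The unigene had a single isoform, comp28303_c1_seq2, which held 100% of its expected counts in every library. No change of isoform with stage can therefore be seen, although isoforms of low abundance had been removed before the data were deposited. The isoform was 2228 bases long, and no other unigene carried the component number comp28303. The isoform table listed 2.14 FPKM in eggs, 963 in larvae and 10658 in pupae, and in adults 414 in males, 575 in the labelled-female library and 63.3 in mated females. These values differ from those of the unigene because the TMM factors were set separately for each table, for example 0.868 for unigenes and 0.954 for isoforms in larvae. The order of the libraries was the same in both tables.

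Ordered by level, the libraries ran from eggs through mated females, males, the labelled-female library and larvae to pupae. The step between the closest neighbours, the labelled-female library over males, was 1.37 times in FPKM computed from counts (1.33 to 1.41). Larvae were 1.89 times the labelled-female library (1.84 to 1.93), males 7.13 times mated females (6.72 to 7.57), pupae 9.95 times larvae (9.78 to 10.1) and mated females 25.6 times eggs (19.2 to 34.9). Each of these intervals lies above 1, but none includes the spread between insects or between extractions, which is unknown here. The order was the same under each of the 5 scalings that were compared.

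Following development, larvae stood far above eggs. The ratio of FPKM + 1 of larvae over eggs was 326, and 12 of the 10799 unigenes, Lsp2 included, had a ratio at least as high. From counts alone, with nothing added, the ratio was 471 with an interval of 355 to 639. A rise of 4-fold or more between these libraries was seen for 8.81% of all unigenes. Among the 2073 unigenes whose counts reached 1000 in either of these libraries, 12 had a ratio of FPKM + 1 at least as high as that of Lsp2.

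Pupae stood at 9.94 times larvae in FPKM + 1. Of all unigenes, 6.18% were at least 4-fold higher in pupae than in larvae, and 285 unigenes had a ratio at least as high as that of Lsp2. Among the 1641 unigenes whose counts reached 1000 in either of these libraries, 123 did. Pupae were at least 4-fold above each of the other 5 libraries for 178 unigenes, or 1.65% of all, and by pupal FPKM Lsp2 was number 2 of these. The unigene ahead of it, comp24397_c0 (matched to FBgn0039682), had 11892 FPKM. The ratio of pupae to the next highest library was at least that of Lsp2 in 93 unigenes.

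In adults the transcript was much lower than in pupae but still abundant in virgin insects. Males stood at 0.0391 times pupae, 25.6-fold lower, and 127 unigenes were lowered at least as far. Among the 1791 unigenes whose counts reached 1000 in either of these libraries, 80 were. Of all unigenes, 4.41% were at least 4-fold lower in males than in pupae. Set against larvae, males were at 0.388 times and the labelled-female library at 0.530 times the larval value. The labelled-female library was at 1.37 times males, and 598 unigenes had a ratio at least as high. Among the 1522 unigenes whose counts reached 1000 in either of these libraries, 19 did. No unigene was 4-fold higher in the labelled-female library than in males, a share of 0%.

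Mated females had much less Lsp2 RNA than males or the labelled-female library. They stood at 0.104 times the labelled-female library, 9.60-fold lower, and 263 unigenes were lowered at least as far. Among the 2132 unigenes whose counts reached 1000 in either of these libraries, 80 were. Against males, mated females stood at 0.142 times. Of all unigenes, 6.90% were at least 4-fold lower in mated females than in the labelled-female library, and 6.37% than in males. The yolk protein unigene comp28593_c1 took 3.74% of the counts of the mated library, and its part in the lower share of Lsp2 was not tested. When shares were computed without the 10 other most abundant unigenes of each library, a setting chosen after the data were seen, the ratio to the labelled-female library was 0.116.

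A pattern of a low level in eggs alone, with at least 26 FPKM in 5 libraries and below 4 FPKM in eggs, was met by 10 unigenes. The pattern describes the already known profile of Lsp2, which had 48 counts in eggs and so was not absent there. Lsp2 had the highest pupal level of these, and the next, comp26886_c0, had 1515 FPKM.

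The second hexamerin unigene, comp27282_c0, matches Lsp1alpha, Lsp1beta and Lsp1gamma, the genes for the subunits of the other serum storage protein of *D. melanogaster*, equally well, so copies of these genes cannot be told apart here. Its FPKM was 0.16 in eggs, 601 in larvae and 256 in pupae, then 4.34 in males, 4.26 in the labelled-female library and 0.12 in mated females. It was highest in larvae, with pupae at 0.428 times larvae, whereas Lsp2 was highest in pupae. The egg and mated female values rest on 4 and 3 counts.

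Set per length against Lsp1 within each library, Lsp2 was the more abundant hexamerin throughout, by a margin that differed widely between stages. The FPKM of Lsp2 was 1.76 times that of Lsp1 in larvae (1.72 to 1.81) and 41.1 times in pupae (39.9 to 42.3). In adults it was 94.6 times in males (77.8 to 116), 132 times in the labelled-female library (107 to 165) and 480 times in mated females (166 to 2366). In eggs it was 14.1 times (5.04 to 52.6). The margin was narrowest in larvae. Lsp2 made up 60.6% of the counts of both hexamerins in larvae and 97.3% in pupae, and both together took 0.338% of the larval and 2.22% of the pupal library.

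The unigene comp26003_c0, matched to PPO1, had 0.74 FPKM in eggs, 18.6 in larvae and 3 in pupae, followed by 1.47 in males, 0.94 in the labelled-female library and 6.03 in mated females. The unigene comp26580_c0, matched to PPO1, PPO2 and PPO3 alike, is listed at 0 FPKM in every library although it has 296 expected counts in pupae and at most 1 in each other library, so by counts it was highest in pupae as Lsp2 was. Of the 4 unigenes of the hexamerin family, 3 had FPKM values and of these only Lsp2 was highest in pupae, against 17.5% of the 9596 unigenes with FPKM values.

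The other secreted and storage proteins of the fat body fell into different patterns around that of Lsp2. Fbp1, which in *D. melanogaster* is the ecdysone-controlled receptor through which the fat body takes up hexamerins, was highest in pupae and low in each other library. Its unigene, comp30242_c0, had 0.25 FPKM in eggs, 1.25 in larvae and 676 in pupae, and in adults 3.81 in males, 3.95 in the labelled-female library and 0.05 in mated females. On the scale of FPKM + 1, pupae stood at 301 times larvae for Fbp1, against 9.94 times for Lsp2. From counts the Fbp1 ratio was 540 (381 to 796), with 31 counts in larvae. In larvae the FPKM of Lsp2 was 847 times that of Fbp1 (596 to 1247), and in pupae it was 15.6 times (15.3 to 15.8). Larvae thus held little Fbp1 RNA, while Lsp2 ranked 125 there by FPKM. Both libraries mix daily collections of a whole stage, so the order of onset within a stage cannot be read from them.

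Fbp2, a fat body protein related to alcohol dehydrogenase, came closer to Lsp2 in its larval level. Its unigene, comp23469_c0, had 0.22 FPKM in eggs, 496 in larvae and 1263 in pupae, then 35.6 in males, 31.5 in the labelled-female library and 0.21 in mated females. Pupae stood at 2.54 times larvae. Both Fbp unigenes were near 0 in mated females, where Lsp2 kept 57.55 FPKM.

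The lipid carriers varied less. Apolipophorin (apolpp, comp29556_c0), the main lipid carrier of insect blood, had 80.7 FPKM in eggs, 2501 in larvae and 3025 in pupae, followed by 727 in males, 988 in the labelled-female library and 583 in mated females. Lsp2 was at 0.423 times apolpp in larvae, 3.48 times in pupae, 0.564 times in males, 0.568 times in the labelled-female library and 0.0986 times in mated females. Lsp2 exceeded this carrier in pupae alone, also with FPKM summed over isoforms, where the ratio was 0.878 in larvae and 3.64 in pupae. Mated females stood at 0.591 times the labelled-female library for apolpp, at 0.697 times without TMM factors and at 0.555 times with size factors. With FPKM summed over isoforms the ratio was 1.30, so its direction there depends on whether unigene or isoform FPKM is used. The lipid transfer particle unigene (Apoltp, comp27238_c0) had between 26.6 FPKM in eggs and 259 in larvae. Pupae stood at 0.676 times larvae for Apoltp, and at 1.81 times with FPKM summed over isoforms.

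Transferrin (Tsf1, comp28301_c0), an iron-binding protein of the blood, had 71.6 FPKM in eggs, 61.6 in larvae and 300.4 in pupae, and in adults 288 in males, 249 in the labelled-female library and 142 in mated females. It resembled Lsp2 in being 4.82 times higher in pupae than in larvae but stayed near the pupal level in virgin adults. The yolk protein unigene (Yp1, comp28593_c1) ran the other way, with 18398 FPKM in mated females against 242 in the labelled-female library, 278 in males and 13.8 in pupae. Of these 6 fat body proteins, 4 were highest in pupae, or 5 with FPKM summed over isoforms, against 17.5% of all unigenes with FPKM values. At least 4-fold higher in pupae than in larvae were 2 of the 6, against 6.18% of all unigenes. Their median log2 ratio of pupae over larvae was 1.24, beside 0 over all unigenes. Between mated females and the labelled-female library, 2 were at least 4-fold lower and 1 was at least 4-fold higher, against 6.90% and 5.34% of all unigenes. Their median log2 ratio was −1.16, beside −0.06 over all unigenes. That median rests on unigene FPKM. With FPKM summed over isoforms the ratio was 1.30 for apolpp and 0.699 for Apoltp, against 0.591 and 0.349 with unigene FPKM. The list has only 6 members and was chosen with earlier results of these data known, so its counts are a description.

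**Figure D2:**
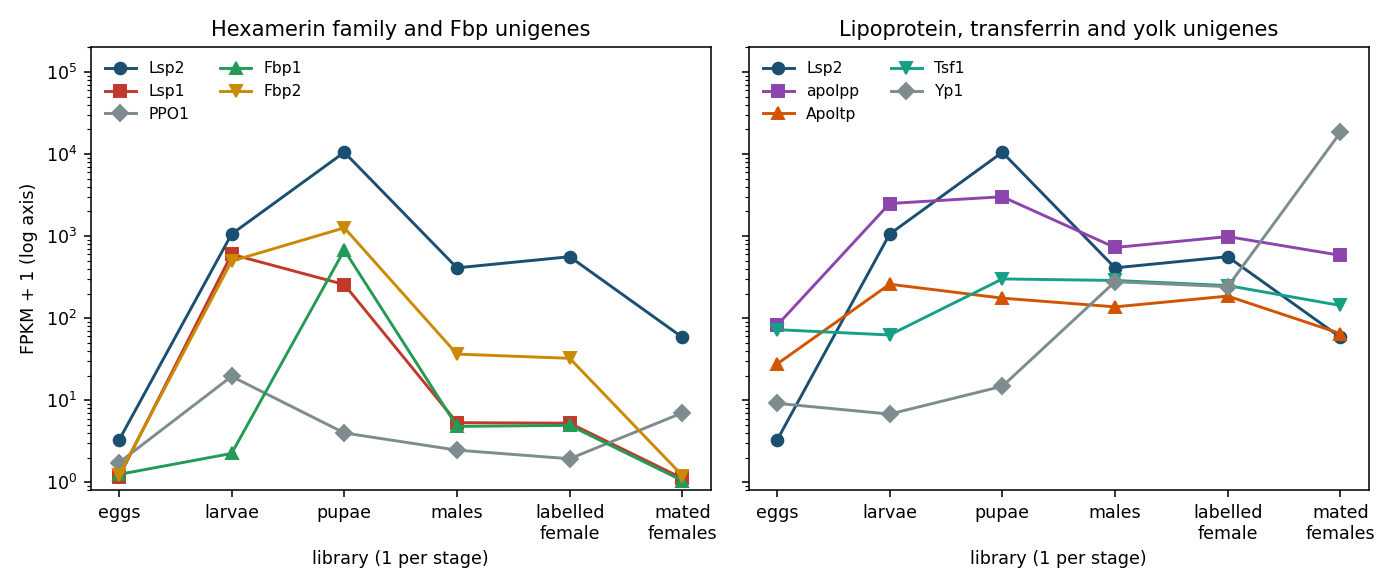
FPKM + 1 on a log axis in each library (1 per stage) for Lsp2 with its relatives and the Fbp unigenes (left), and for Lsp2 with lipid carriers, transferrin and yolk protein (right); lines join the libraries of a unigene. Lsp2 and Fbp1 are highest in pupae at 10529.6 and 676 FPKM, Lsp1 is highest in larvae at 601 FPKM, and Yp1 is highest in mated females at 18398 FPKM.

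**Figure D3:**
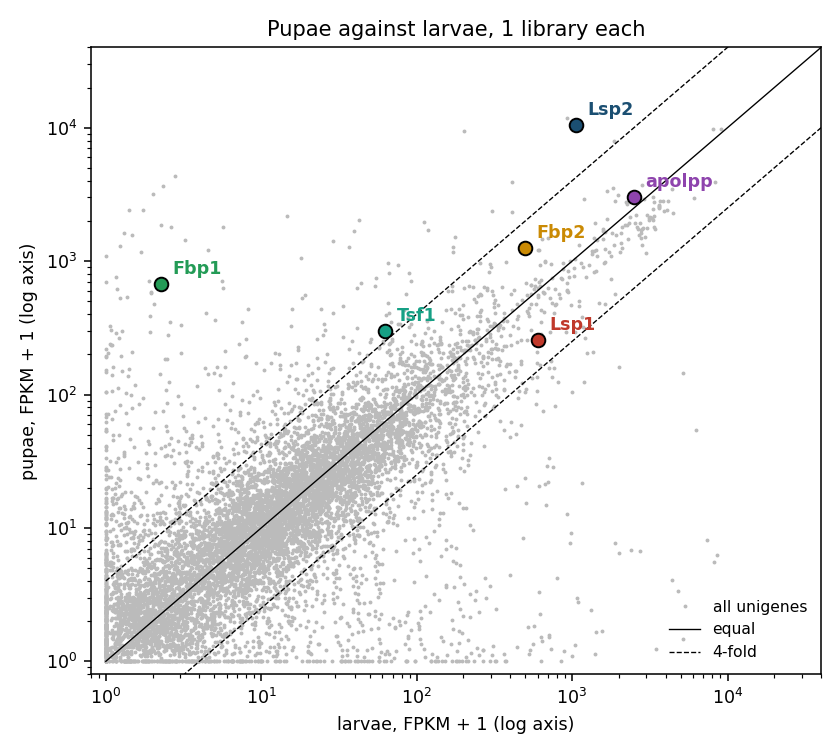
Pupal against larval FPKM + 1 for all unigenes (grey), both axes log, 1 library each; the solid line marks equal levels and the dashed lines 4-fold. Lsp2 lies above the upper dashed line at a ratio of 9.94 with few unigenes at its height, and Lsp1 lies below the solid line at 0.428.

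Metamorphosis is timed by ecdysone and juvenile hormone, and 9 unigenes of these pathways were read beside Lsp2. Of the 8 with FPKM values, 2 were highest in pupae, Jhe under each of 4 scalings and Eip75B not without TMM factors or with FPKM summed over isoforms, and 17.5% of all unigenes were highest there. Of the same 8, 1 was at least 4-fold higher in pupae than in larvae and 1 was at least 4-fold lower. Over all 10799 unigenes, those listed at 0 FPKM included, the shares were 6.18% and 6.20%. With so few members these counts do not set the list apart from the rest. Juvenile hormone esterase (Jhe, comp28974_c0), which breaks the hormone down, had 5.92 FPKM in pupae and 0.47 in larvae. Its ratio of pupae over larvae was 4.71 in FPKM + 1 and 12.6 from counts (6.20 to 30.0). The juvenile hormone response factor Kr-h1 (comp20514_c0) had 0.28 FPKM in pupae and 8.66 in larvae. Its ratio was 0.133 in FPKM + 1 and 0.0327 from counts (0.00661 to 0.0991). The acid methyltransferase of juvenile hormone synthesis (jhamt, comp26796_c0) was lowest in pupae at 0.11 FPKM and highest in mated females at 7.21. The pupal values of Kr-h1 and jhamt rest on 3 and 1 counts. The library with the most Lsp2 had the most Jhe and the lowest listed values of Kr-h1 and jhamt, and whether these levels are linked was not tested.

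Among the ecdysone genes, the hormone-response factor br (comp22723_c0) had 3.20 FPKM in pupae and 4.61 in larvae. Eip75B (comp23502_c0), another response factor, had 31.8 FPKM in pupae and 30.0 in larvae. The P450 enzymes phm (comp26490_c0) and shd (comp26792_c0), which act late in ecdysone synthesis, had 2.62 and 5.20 FPKM in pupae against 2.46 and 18.2 in larvae. Cyp18a1 (comp26490_c1), which inactivates the hormone, had 21.2 FPKM in pupae and 24.1 in larvae. Eip93F (comp21981_c0) is listed at 0 FPKM in every library although counts exist. Its expected counts were 0 in eggs and 0 in larvae, each of which allows up to 3, 24 in pupae, 87 in males, 115 in the labelled-female library and 2 in mated females. By counts it was thus higher in pupae than in larvae, and higher still in both virgin adult libraries.

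The profile of Lsp2 over the stages was also compared with those of all 4726 unigenes that reached 26 FPKM in a library. The distance used is the summed absolute difference between the shares of FPKM in the 6 libraries divided by 2, in percentage points, and it is a description, since all profiles share these libraries. The median unigene lay 69.5 points from Lsp2, and 34 lay within 10 points. The nearest was comp25996_c0 (FBgn0038114) at 2.81 points, with 44.1 FPKM in pupae and 4.32 in larvae. The next, comp26886_c0, at 3.22 points, had no *D. melanogaster* match in the sources used here. With 1515 FPKM in pupae and 175 in larvae it was the most abundant of the 10 nearest.

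The others were comp29868_c0 (FBgn0035439) at 4.03 points, comp25717_c0 at 4.36, comp28021_c0 at 4.51 and comp27896_c1 (FBgn0030358 and FBgn0052029) at 5.11. They were followed by comp23417_c0 at 5.62, comp23200_c0 (FBgn0038783) at 5.75, comp30365_c0 (FBgn0034157) at 6.29 and comp22923_c0 (FBgn0030271) at 6.86. Pupal levels among them ranged from 29.8 FPKM for comp28021_c0 to 1515 for comp26886_c0, so none came near the abundance of Lsp2. Outside pupae the likeness was looser. In comp23417_c0, comp23200_c0, comp30365_c0 and comp22923_c0 males stood above larvae, the reverse of Lsp2.

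The proteins that share the biology of Lsp2 in *D. melanogaster* were not among its nearest profiles. Of the 4726 unigenes compared, Fbp1 was in place 87 at 15.2 points, Fbp2 in place 127 at 18.8, apolpp in place 340 at 45.2 and Lsp1 in place 824 at 61.0. All of these lay nearer than the median of 69.5 points. Yp1 was in place 4638 at 96.7 points.

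**Figure D4:**
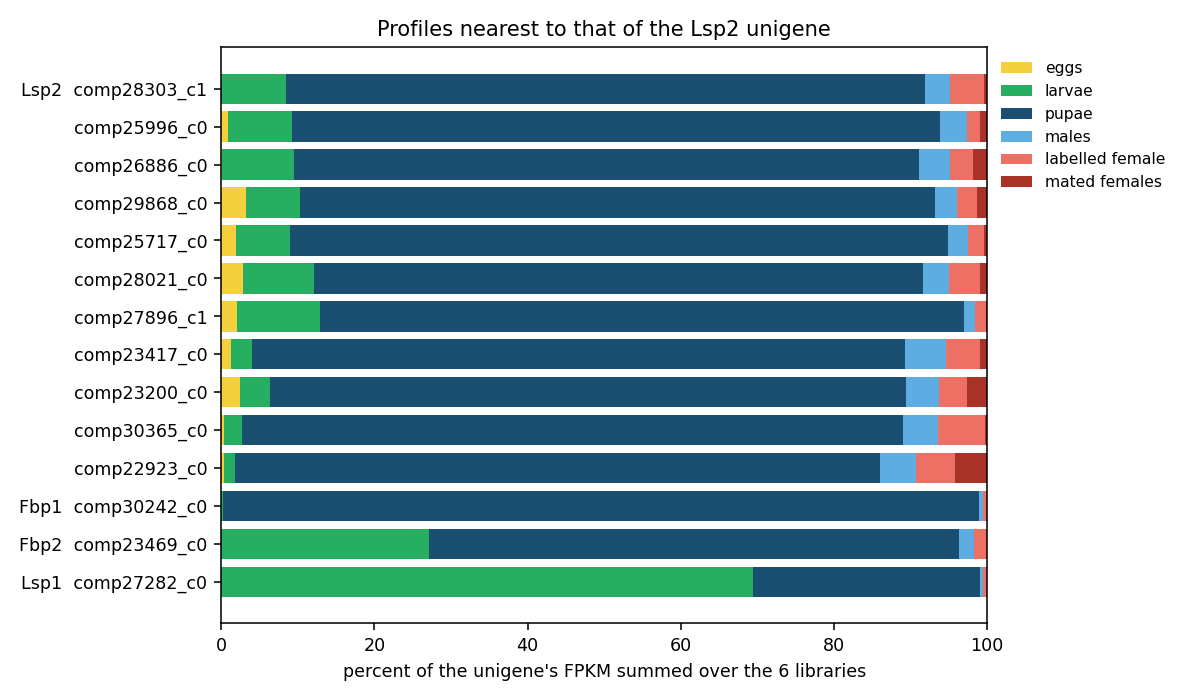
Share of each unigene's summed FPKM that lies in each of the 6 libraries, as stacked bars in percent, for Lsp2, the 10 unigenes nearest to it in profile and 3 related fat body unigenes. Lsp2 has 83.4% in pupae and 8.39% in larvae. The 10 nearest, which were chosen by this likeness, also have most of their bar in pupae, and Lsp1 has most of its bar in larvae.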

How the data were processed

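The authors assembled the reads of all libraries with Trinity, removed transcripts of low abundance or without a likely coding sequence, aligned each library with bowtie 0.12.7 and estimated abundance with RSEM (1.2.0 in the submitters' processing notes, while the methods give an earlier version for the estimates per library). The deposited expected counts are not normalized, and the deposited FPKM values were scaled by the authors with TMM factors. No genome was used, so no coordinates are given, and 0 of the 10799 identifiers matched the reference list of 17486 genes. The *D. melanogaster* matches are FlyBase identifiers listed in the paper's additional files, and gene symbols not spelled out there were assigned from general knowledge of FlyBase.

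Fold changes are ratios of FPKM + 1, the later library on top, which understates changes of low unigenes. Counts of unigenes with a ratio at least as high as Lsp2, or lowered at least as far, include Lsp2 itself. The 1203 unigenes listed at 0 FPKM with counts stayed at 0 and count as unchanged. Counts were rounded before exact Poisson, Wilson or exact conditional binomial intervals were computed. TMM factors and lengths were recovered from counts and FPKM, which was tested on simulated data. Named are Lsp2, the unigenes of 4 gene lists, the 10 nearest profiles and the unigene with the most counts in each library; comp24397_c0 was added after its values were seen. The unigene, the lists and the alternatives were chosen with earlier results of these data known. Computations used scipy 1.17.1, numpy 2.4.6 and pandas 2.3.3 in Python 3.11.15, and figures matplotlib 3.10.9.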

Additional observations from a re-analysis of the deposited data

How the results depend on the processing

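With 1 library per stage, the values describe these libraries, and no alternative can stand in for replicates. No paired analysis was possible because each stage has 1 library and the labels carry no replicate numbers. Of 38 alternative values, 22 moved by less than counting error or within 1.5 times for counts of unigenes, 16 moved further and none changed direction. Without TMM factors the ratios were 235 for larvae over eggs, 10.6 for pupae over larvae and 0.123 for mated females over the labelled-female library. With median-of-ratios size factors they were 10.3 for pupae over larvae, 0.0400 for males over pupae and 0.0978 for mated females over the labelled-female library. With isoform FPKM they were 11.1 for pupae over larvae and 0.112 for mated females over the labelled-female library. A pseudocount of 0.1 gave 451 for larvae over eggs. Without the 10 other most abundant unigenes, chosen after the data were seen, the ratios were 10.8 for pupae over larvae, 0.0406 for males over pupae and 0.116 for mated females over the labelled-female library, and the pupal share was 2.50%. It was 2.35% of the TMM effective library size. By FPKM the pupal rank was 2. By the Pearson coefficient of log2(FPKM + 1), 1 of the 10 nearest unigenes, comp26886_c0, was shared, and 8 or 9 under the other settings. The median log2 ratio of all unigenes shifted by −0.53 for larvae over eggs and by 0.22 for mated females over the labelled-female library without TMM factors, and by 0.14 for pupae over larvae with isoform FPKM. The egg level of Lsp2 rests on 48 counts, which limits the precision of the ratio of larvae over eggs.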

Other observations

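None of the 4 lipid storage unigenes was highest in pupae as Lsp2 was, except that Lsd-1 was highest there with FPKM summed over isoforms. Of all unigenes with FPKM values, 17.5% were highest in pupae. The perilipin Lsd-2 (comp26770_c0), a lipid droplet coat protein, was highest in eggs, with 368 FPKM there, 85.5 in larvae and 92.2 in pupae, then 98.6 in males, 84.0 in the labelled-female library and 189 in mated females. The diacylglycerol acyltransferase mdy (comp26869_c2), which makes storage fat, had 56.1 FPKM in eggs, 35.5 in larvae and 19.7 in pupae, followed by 14.8 in males, 16.1 in the labelled-female library and 48.4 in mated females. The perilipin Lsd-1 (comp23664_c0) had 73.8 FPKM in pupae and 78.9 in larvae, a ratio of 0.937, or 1.04 with FPKM summed over isoforms. The desaturase Desat1 (comp27362_c0) had 84.6 FPKM in pupae and 275 in larvae. None of the 4 was past 4-fold between pupae and larvae, where 6.18% of all unigenes were higher and 6.20% lower, or between mated females and the labelled-female library, where 5.34% were higher and 6.90% lower. With 4 members these counts do not set the list apart from the rest.

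The unigene with the most counts was comp30013_c1 in eggs, with 1.81% of the library, and comp30065_c3 in pupae, with 2.80%, both without a *D. melanogaster* match in the sources used here. The unigene comp28816_c2 (FBgn0001233) led in larvae with 2.10%, in males with 3.82% and in the labelled-female library with 4.47%.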
